A study of Mus musculus with 41 samples.

Results

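The genes described here are 38 genes of mitosis: the kinases, cyclins, checkpoint proteins, kinetochore parts, motors and cytokinesis proteins that a cell needs to enter, order and leave cell division. They were listed by name and not by their level. This list and those set beside it were, however, chosen with earlier results of these data known. The counts of genes called therefore describe the lists and are not an independent test. A probe set naming that gene alone was found for 37 of the 38, and the exception, Ccnb1, was not analysed here. These 37 are part of 18194 genes measured, of which 14319 were tested. All 37 passed the filter on low values, which kept a gene when 3 or more arrays had it above their own 40th percentile.

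RNA came from 41 melanomas of iBIP mice, whose tumours are driven by a mutant BRAF transgene that is on while the mouse drinks doxycycline (dox). The labels give the strain only as iBIP, and every group is of that strain, day 0 included. Day 0, with no day off dox, had 4 tumours. After dox was taken from the water days 1, 2 and 3 gave 7, 5 and 6 tumours, days 6 and 9 gave 4 and 3, and days 16 and 29 gave 1 each. The late group pooled 10 tumours of days 63 to 163, and the labels do not say whether these had shrunk or regrown. Age and sex are not given, nor whether each tumour came from its own mouse, so a p-value measures only the spread between these samples. Each was a macrodissected piece with the skin trimmed off, on 1 Mouse Genome 430 2.0 array. The melanocyte genes Sox10 and Mitf lay above the filter level in all 41 tumours, whereas the pigment enzyme gene Tyr did so in 1 and Mlana in 9.

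Mitosis is driven by cyclin-dependent kinase 1 with its cyclins, by the Polo and Aurora kinases, and by the anaphase promoting complex, which destroys the cyclins so that the cell can divide. Most of the genes are transcribed together late in the cell cycle. In resting cells the DREAM complex holds them down through a promoter element called CHR, and in dividing cells B-MYB and FOXM1 act through the same element, with the factor NF-Y at CCAAT boxes beside it. In melanoma, BRAF signals through the MAPK pathway to keep cells in cycle.

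The promoters show what these genes share in sequence, and 8 of them are printed below: 4 of members whose late tumours all lay below every day 0 tumour, and 4 of members whose groups overlapped. Each is the 110 bases before the start of transcription, 5′ to 3′ on the gene's strand, from RefSeq (build GRCm38.p6). Capitals mark the CHR letters TTTGAA or their reverse complement, and CCAAT or its reverse complement.
Plk1: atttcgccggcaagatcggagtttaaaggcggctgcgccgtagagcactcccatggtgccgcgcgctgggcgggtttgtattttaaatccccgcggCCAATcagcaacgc
Aurka: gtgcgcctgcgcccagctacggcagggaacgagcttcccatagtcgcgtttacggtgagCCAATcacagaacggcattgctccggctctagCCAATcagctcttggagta
Cdc20: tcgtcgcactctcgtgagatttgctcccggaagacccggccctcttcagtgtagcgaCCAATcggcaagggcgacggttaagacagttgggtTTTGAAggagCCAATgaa
Ube2c: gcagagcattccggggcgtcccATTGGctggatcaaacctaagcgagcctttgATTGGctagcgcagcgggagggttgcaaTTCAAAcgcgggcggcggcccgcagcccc
Ccnb2: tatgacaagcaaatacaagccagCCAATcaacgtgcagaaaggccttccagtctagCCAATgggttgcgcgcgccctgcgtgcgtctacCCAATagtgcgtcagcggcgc
Cdk1: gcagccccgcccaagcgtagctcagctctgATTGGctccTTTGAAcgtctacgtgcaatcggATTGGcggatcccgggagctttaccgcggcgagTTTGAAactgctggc
Mki67: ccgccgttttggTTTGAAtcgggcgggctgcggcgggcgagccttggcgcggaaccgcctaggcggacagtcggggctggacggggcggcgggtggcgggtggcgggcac
Top2a: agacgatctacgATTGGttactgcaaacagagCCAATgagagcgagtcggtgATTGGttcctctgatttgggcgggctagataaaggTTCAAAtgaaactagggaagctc
These windows lie at chr7:122159325-122159434 on the plus strand for Plk1, chr2:172370571-172370680 on the minus strand for Aurka, chr4:118437344-118437453 on the minus strand for Cdc20 and chr2:164769819-164769928 on the plus strand for Ube2c. The others lie at chr9:70421555-70421664 on the minus strand for Ccnb2, chr10:69352913-69353022 on the minus strand for Cdk1, chr7:135716380-135716489 on the minus strand for Mki67 and chr11:99024190-99024299 on the minus strand for Top2a. Cdc20, Ube2c, Cdk1 and Top2a hold both motifs within the printed bases. For Plk1 and Aurka the TTTGAA match lies after the start, at positions 31 and 33, and is not printed. Also outside the printed bases are the TTTGAA matches of Ccnb2 (-167 and 5) and the CCAAT matches of Mki67 (-188, -166 and -141).

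The promoter table held 31 of the 37 measured members. Both strands were searched from 250 bases before to 50 after the start; neighbouring matches of the motifs can share 1 letter. TTTGAA was found in 24 of the 31 (77.4%), against 14.6% of the tested genes with a promoter in the table and 17.9% of all 32851 promoters. In 22 of the 24 a match began between 60 bases before and 50 after the start. CCAAT was also found in 24 of the 31 (77.4%), against 42% of the tested genes and 37.4% of all promoters. Both motifs stood in 21 members (67.7%), against 5.78% of tested genes and 6.95% of all promoters. In the lists for comparison, TTTGAA was in 55.6% of other spindle and centrosome genes and 37.5% of other kinetochore and checkpoint genes. It was in 36.8% of mitotic entry genes, 17.6% of other anaphase promoting complex genes and 8.33% of MAPK output genes. Among DNA replication genes it was in 6 of 37 (16.2%). CCAAT ran from 35.3% of the anaphase promoting complex genes to 78.9% of the mitotic entry genes, above the share of the members. Both motifs stood in at most 40.7% of a list (spindle and centrosome). A match is a description of the letters and does not show that a factor binds there.

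Values below are log2 intensities after a pseudocount of 16, which makes the change of a weak gene smaller than it is. Levels of different genes cannot be compared on this array, so only differences within a gene are read. Each difference is a log2 fold change, given ± its standard error (SE), a gene was called at a limma Benjamini-Hochberg adjusted p under 0.05 over all 14319 genes, and the mean level of the 37 genes in a tumour is used as a description. In these bulk samples, fewer dividing cells and less RNA per cell cannot be told apart.

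The arrays differ in ways that follow the groups. The gap between the Gapdh control probe sets of the 3′ and 5′ ends (the Gapdh difference), which grows as RNA breaks down, was at most 1.04 in all tumours of days 0 to 6, was over 2 in 1 of 3 day 9 tumours (2.34) and ranged from 2.19 to 4.41 in 8 of 10 late tumours. The other 2 late tumours, replicate 5 (day 77) and replicate 8 (day 121), had 0.60 and 0.27. Spike-in controls split the arrays into 3 sets: set 3 holds all tumours of days 0, 9, 16 and 29 with 2 late ones, set 2 holds 6 of 7 day 1 tumours with 8 late ones, and set 1 holds the rest. No tumour of days 1 to 6 therefore shares a set with day 0, and for those days group and set cannot be told apart within a set.

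Across the first 9 days off dox the mitosis genes were mostly a little lower than at day 0, and few were called. At day 1, 1 member was called lower and 0 higher, where 6.25% of all tested genes were called lower and 7.57% higher. At day 2 the counts were 1 and 0, with a background of 8.35% and 6.74%. By day 3 they were 2 and 0 against 11.6% and 9.74%. For day 6 they were 1 and 0 against 6.46% and 5.74%, and for day 9 again 1 and 0 against 1.91% and 2.65%. In this fit each share of members called lower up to day 6 was thus below the background. Other fits put it above at some days. With only the groups compared, day 3 had 8 of 37 members lower against 12.4% of all tested genes. With array weights, day 3 had 9 of 37 against 17.1% and day 6 had 9 of 37 against 14.6%.

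The single member called at days 1, 2, 6 and 9 was Foxm1, and Plk1 joined it at day 3. The median difference of the 37 members was -0.27, -0.23 and -0.37 at days 1, 2 and 3, and -0.50 and -0.58 at days 6 and 9, while that of all tested genes stayed between -0.02 and 0.03. Differences below 0 numbered 34, 29, 35, 36 and 37 of 37 at these days. Among all tested genes the shares below 0 were 49.6%, 52.5%, 52.6%, 50.1% and 45.9%. These comparisons all use the same 4 day 0 tumours, so they are not independent of each other. At an unadjusted p under 0.05 the members lower numbered 2, 1, 7, 8 and 9. At day 9 the tumours were far apart: the mean over the members was 7.28, 8.56 and 7.55 in replicates 1 to 3, against 7.80 to 8.69 at day 0. Without day 9 replicate 2 the count called lower at day 9 was 11 and the median -0.93. The early calls also rest on single tumours: leaving out day 0 replicate 3 or 4 took the counts of days 1, 6 and 9 to 0, and so did leaving out day 6 replicate 1 for day 6 and day 9 replicate 1 or 3 for day 9. With spike-in set as a covariate the medians were -0.93, -0.72, -0.84 and -0.98 at days 1, 2, 3 and 6, with 2, 0, 0 and 0 members called lower. Day 0 is tied to those days in this fit only through late replicates 9 and 10, the late tumours of set 3. Replicate 9 had the lowest member mean of the late tumours (6.20). Days 2, 3 and 6 are tied further only through day 1 replicate 4, the day 1 tumour of set 1. These medians rest on those few arrays and do not give the size of the early fall apart from the spike-in set.

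In the late tumours 34 of 37 members were called lower than at day 0 and 0 higher, where 20.1% of all tested genes were called lower and 26.3% higher. The median difference was -1.12, a 2.17-fold lower level, beside 0.05 over all tested genes. The 37 differences ran from -1.87 for Plk1 to -0.28 for Nusap1. Kif11, Ttk and Nusap1 missed the call. All late tumours lay below all day 0 tumours for 5 members, Plk1, Aurka, Cdc20, Ube2c and Foxm1, and this was so for 7.67% of all tested genes. The late group had the lowest mean of the groups with over 1 tumour for 37 of 37 members, and day 0 had the highest for 28. The mean fell at each step from day 0 to day 3, day 6 and late for 31. Days 1, 2 and 9 are left out of that path, and for some members they break the order. The Mki67 mean, for example, was 9.74 at day 6 and 9.95 at day 9. The share of all tested genes with these orders was not counted.

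**Figure D1:**
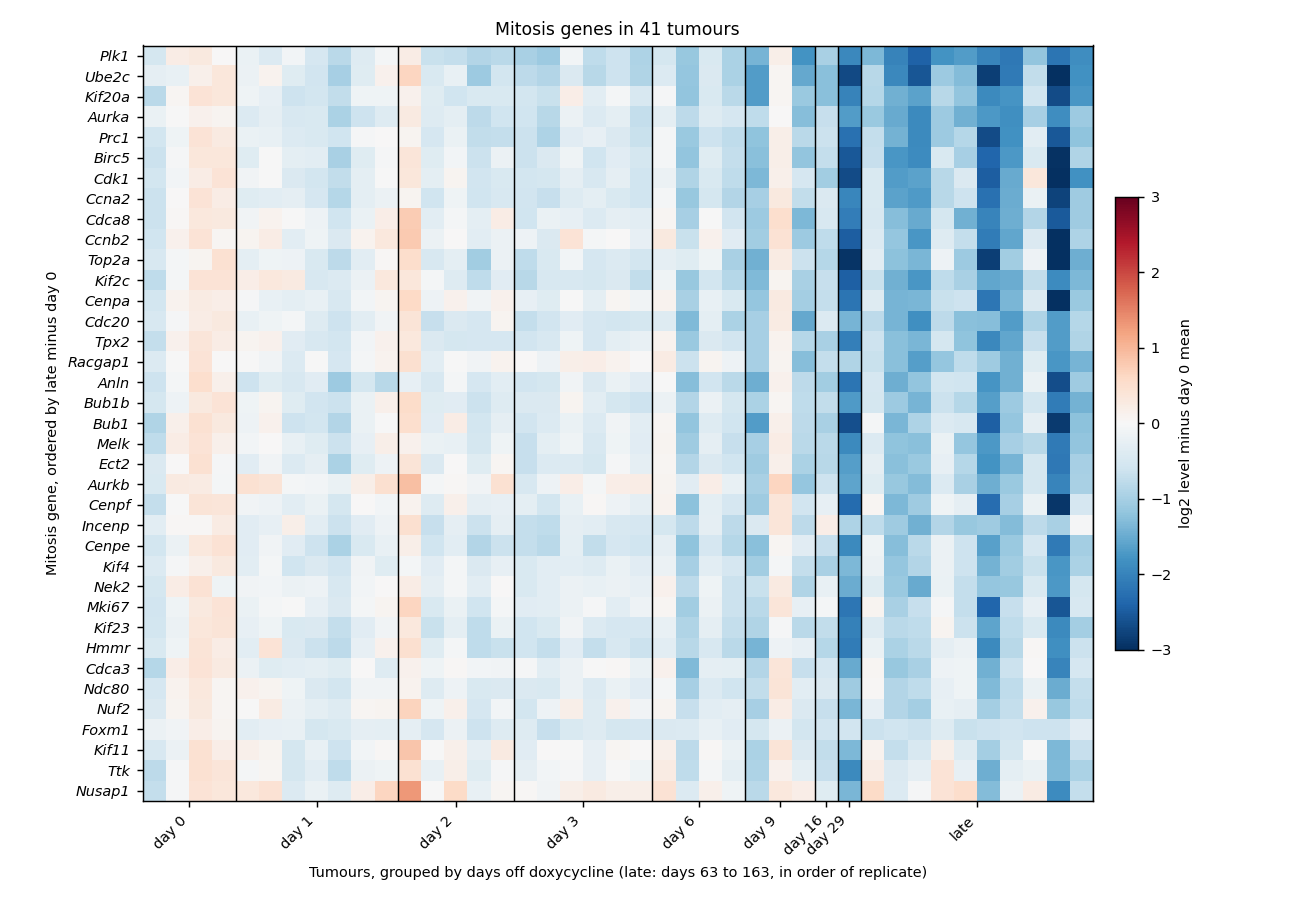
Each row is 1 of 37 mitosis genes and each column 1 of 41 tumours, grouped by days off dox; colour is the log2 level minus the gene's day 0 mean, blue lower and red higher. Most columns of days 1 to 6 are pale, day 6 replicate 2 (33 of 37 genes below every day 0 tumour) being darker, while the day 29 tumour and late replicates 6 and 9 are dark blue in nearly every row.

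Against day 1, which shares spike-in set 2 with most late tumours, 30 of 37 members were called lower in the late tumours and 0 higher, with a background of 22.8% lower and 28.9% higher and a median of -0.89. Within set 2 alone, 8 late and 6 day 1 tumours, 21 members were called lower with a median of -0.77, where 23.7% of all tested genes were. Within set 3, 2 late and 4 day 0 tumours, 17 members were called lower than at day 0 with a median of -1.57, where 5.31% of all tested genes were. Those late tumours are replicates 9 and 10, with Gapdh differences of 2.41 and 4.41 against 0.28 to 0.58 at day 0. Replicate 9 was the lowest late tumour for 28 of 37 members. This fit therefore matches the set but not the RNA quality. Against the mean of days 6 and 9 the late tumours had 21 members lower and 0 higher, with a background of 13.8% and 17.8% and a median of -0.53. That last count was 3 when day 9 replicate 2 was left out, 12 for day 6 replicate 1, and 13 for day 6 replicate 3, late replicate 6 or late replicate 9. It was also 3 with only the groups compared, and the RNA quality fits described next took it to 1 and 0.

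RNA quality moves with the late group. Without the 9 tumours whose Gapdh difference exceeded 2, which leaves 2 late tumours, 9 members were called lower than at day 0 (15.2% of all tested genes were) and the median was -0.58. Those 9 were Plk1 (-1.44 ± 0.34, SE, adjusted p = 0.00294 by limma), Aurka (-1.23 ± 0.24), Cdca8 (-1.15 ± 0.35), Cdc20 (-1.09 ± 0.30), Melk (-0.99 ± 0.31), Incenp (-0.96 ± 0.26), Tpx2 (-0.96 ± 0.32), Foxm1 (-0.65 ± 0.12) and Kif4 (-0.63 ± 0.22). With the Gapdh difference as a covariate 16 were called, where 13.2% of all tested genes were. Against day 1 the same fits called 9 members (14.6% of all tested genes) and 11 (14.9%). Against the mean of days 6 and 9 they called 1 (7.29%) and 0 (3.34%). The part of RNA quality in the other calls was not tested further. The day 29 tumour, which enters no comparison, had a Gapdh difference of 0.76 and lay below every day 0 tumour for 37 of 37 members. Late replicates 5 and 8 did so for 25 and 12 members, and the day 16 tumour (Gapdh difference 0.98) for 25. The share of all tested genes below every day 0 value in a single tumour was not counted.

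**Figure D2:**
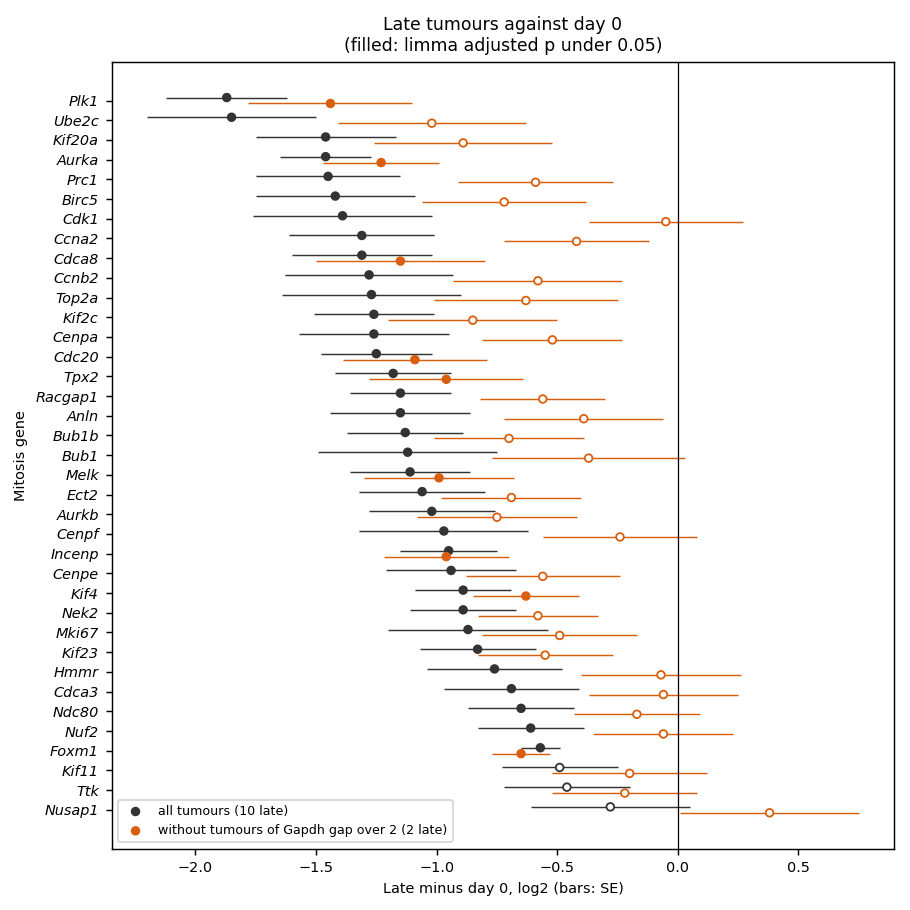
Points are late minus day 0 differences in log2 for each of the 37 genes, with SE bars, using all tumours (black, 10 late) or leaving out tumours with a Gapdh difference over 2 (orange, 2 late); filled points have an adjusted p under 0.05. In black 34 points are filled and in orange 9, and Cdk1 moves from -1.39 to -0.05.

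The transcription factor Foxm1, which switches on many of the other members, was the earliest to be called. Its day 0 tumours stood at 7.48, 7.55, 7.84 and 7.74. After dox was removed it measured 7.13 to 7.42 (median 7.37) at day 1, then 7.38, 7.16, 7.48, 7.04 and 7.26 at day 2, and 6.97 to 7.27 (median 7.17) at day 3. All tumours of days 1 and 3 lay below all day 0 tumours, and 1 of 5 at day 2 reached the lowest of them. Day 6 gave 7.22, 7.25, 7.42 and 7.32, day 9 gave 7.13, 7.47 and 7.09, and days 16 and 29 gave 7.08 and 7.07. The late tumours spanned 6.98 to 7.32 (median 7.02), the narrowest range of all members. Foxm1 differed from day 0 by -0.33 ± 0.09 at day 1 (SE, limma adjusted p = 0.0117), -0.49 ± 0.09 at day 3 (adjusted p = 0.000351) and -0.57 ± 0.08 in the late tumours (adjusted p = 2.08e-06). Leaving out single tumours ended its calls at days 1, 6 and 9 as given for the counts above, with differences of -0.39 to -0.27. With spike-in set as a covariate the differences of days 1, 2, 3 and 6 were -0.18, -0.04, -0.15 and -0.01, none of them called. They rest on the same few arrays as the medians of that fit given above. A pair of other Foxm1 probe sets that passed the filter gave -0.17 and -0.18 at day 1, neither called, and -0.49 and -0.93 in the late tumours, both called.

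Cdk1 is the kinase that drives entry into mitosis. Its log2 levels were 9.01, 9.47, 9.77 and 9.96 at day 0 and 8.81 to 9.55 (median 9.27) at day 1, then 9.90, 9.27, 9.64, 8.98 and 9.09 at day 2 and 8.96 to 9.29 (median 9.05) at day 3. Later tumours read 9.37, 8.65, 9.10 and 8.79 at day 6 and 8.20, 9.70 and 9.05 at day 9, with 8.52 at day 16 and 6.88 at day 29. The late tumours spread over 6.17 to 9.89 (median 7.99), more widely than for any other member: replicate 8 was above all but 1 day 0 tumour and replicate 9 was the lowest of the series. The late difference was -1.39 ± 0.37 (SE, limma adjusted p = 0.00284). Without tumours of a large Gapdh difference, which leaves late replicates 5 and 8 (9.12 and 9.89), it was -0.05 against day 0. In that fit it was 0.25 against day 1 and 0.54 against days 6 and 9, none called. The late tumours left out ran from 6.17 to 9.10. The part of RNA quality in the Cdk1 difference was not tested. The cyclins that partner Cdk1, Ccna2 (-1.31 ± 0.30) and Ccnb2 (-1.28 ± 0.35), also fell in the late tumours.

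Plk1, the Polo kinase that acts from mitotic entry to cytokinesis, showed the largest late fall. It stood at 7.45, 8.20, 8.26 and 8.0 at day 0 and 7.16 to 7.93 (median 7.59) at day 1, then 8.19, 7.32, 7.26, 7.11 and 7.17 at day 2 and 6.88 to 7.89 (median 7.13) at day 3. Day 6 tumours had 7.44, 6.84, 7.51 and 7.02, those of day 9 6.59, 8.16 and 6.19, and the single tumours of days 16 and 29 7.01 and 6.04. In the late tumours the range was 5.54 to 6.79 (median 6.06), so that the highest late tumour was below the lowest day 0 tumour and also below every day 1 tumour. Its difference from day 0 was -0.75 ± 0.27 at day 3 (SE, limma adjusted p = 0.0471), a call held in 10 of 23 alternatives and lost without day 0 replicate 2, 3 or 4 or any day 3 tumour but replicate 3 (-0.77 to -0.65), and -1.0 ± 0.32 at day 9 (adjusted p = 0.0639). The late difference was -1.87 ± 0.25 (adjusted p = 5.42e-07), or 3.65-fold, and it was called in 29 of 29 alternatives, from -2.14 to -1.35.

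Aurka, the Aurora kinase of centrosomes and spindle poles, read 7.89, 8.09, 8.23 and 8.19 at day 0 and 7.16 to 7.83 (median 7.65) at day 1, then 8.36, 7.72, 7.81, 7.32 and 7.51 at day 2 and 7.27 to 7.92 (median 7.60) at day 3. It read 7.81, 7.31, 7.72 and 7.59 at day 6 and 7.34, 8.12 and 6.82 at day 9, with 7.42 at day 16 and 6.42 at day 29. The day 1 and day 6 tumours all lay below day 0, though neither difference was called (-0.51 ± 0.20, limma adjusted p = 0.0833, and -0.50 ± 0.23, adjusted p = 0.149, with SE). Late tumours read 6.20 to 7.10 (median 6.61), all below every tumour of days 0 and 1. The late difference was -1.46 ± 0.19 (adjusted p = 3.52e-07), called in 29 of 29 alternatives.

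**Figure D3:**
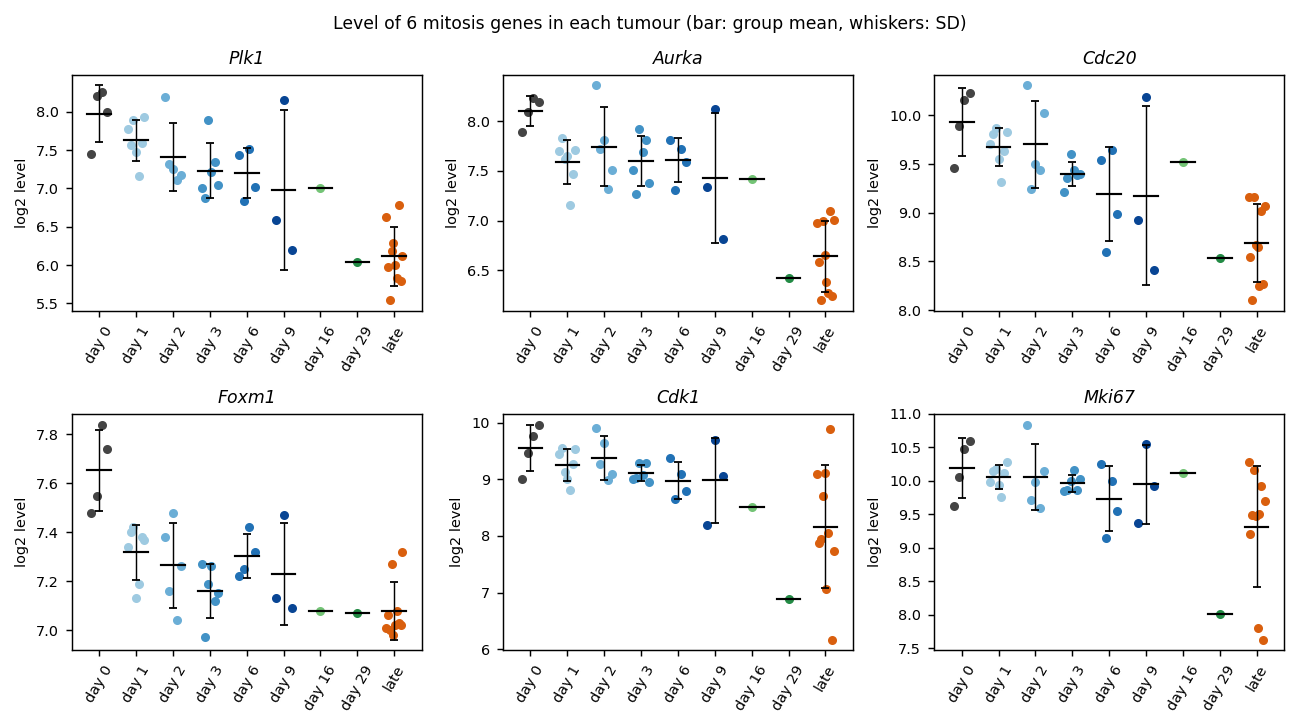
Each panel plots the log2 level of 1 gene in every tumour by days off dox; points are tumours, bars group means and whiskers SD. The late tumours of Plk1, Aurka, Cdc20 and Foxm1 all sit below day 0, while those of Cdk1 (6.17 to 9.89) and Mki67 (7.63 to 10.28) reach into the day 0 range.

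Aurkb is the Aurora kinase of the chromosomal passenger complex, which corrects faulty attachments at the centromere. Against 6.41, 7.12, 7.11 and 6.80 at day 0 it read 6.67 to 7.33 (median 7.03) at day 1, 7.77, 6.79, 6.90, 6.75 and 7.32 at day 2 and 6.38 to 7.08 (median 6.92) at day 3. Further values were 6.94, 6.52, 7.06 and 6.64 at day 6 and 5.89, 7.51 and 5.71 at day 9, with 6.25 at day 16 and 5.27 at day 29. Its early differences lay on both sides of 0, at 0.24 ± 0.29 (SE) at day 2 and -0.02 ± 0.28 at day 3, and none was called. In the late group it measured 4.88 to 6.50 (median 5.81), below every day 1 tumour and overlapping with the lowest day 0 tumour. The late difference was -1.02 ± 0.26 from day 0 (limma adjusted p = 0.0014) and -1.19 ± 0.21 from day 1. Its partners in the complex, Birc5 (-1.42 ± 0.33), Cdca8 (-1.31 ± 0.29) and Incenp (-0.95 ± 0.20), were called lower too.

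Bub1b, a part of the spindle checkpoint that delays anaphase, gave 7.54, 7.92, 8.37 and 8.48 at day 0 and 7.43 to 8.24 (median 7.88) at day 1, then 8.62, 7.71, 7.74, 7.43 and 7.70 at day 2 and 7.46 to 8.16 (median 7.64) at day 3. Days 6 and 9 gave 7.90, 7.21, 7.90 and 7.56 and 7.12, 8.14 and 7.32, and days 16 and 29 7.33 and 6.39. The late tumours ran over 5.99 to 7.56 (median 6.99), and only replicate 1 reached the lowest day 0 tumour. The late difference was -1.13 ± 0.24 (SE, limma adjusted p = 0.000258). Among the other checkpoint kinases Bub1 fell (-1.12 ± 0.37, adjusted p = 0.0124), and Ttk was at -0.46 ± 0.26 (adjusted p = 0.14). The largest day 2 value of Bub1b, 8.62, belongs to replicate 1, the tumour in which 18 members exceeded the highest day 0 value.

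Cdc20 and Ube2c act at the end of the checkpoint, Cdc20 as the activator of the anaphase promoting complex and Ube2c as its ubiquitin-conjugating enzyme. Cdc20 measured 9.46, 9.89, 10.16 and 10.23 at day 0 and 9.32 to 9.87 (median 9.71) at day 1, then 10.31, 9.24, 9.50, 9.44 and 10.02 at day 2 and 9.21 to 9.60 (median 9.39) at day 3. It then measured 9.54, 8.60, 9.64 and 8.99 at day 6 and 8.93, 10.19 and 8.41 at day 9, with 9.52 at day 16 and 8.53 at day 29. Late tumours covered 8.10 to 9.16 (median 8.66), all below days 0 and 1. The late difference of Cdc20 was -1.25 ± 0.23 (SE, limma adjusted p = 5.88e-05) and that of Ube2c -1.85 ± 0.35 (adjusted p = 6.77e-05). For Ube2c the late range of 5.90 to 8.43 lay below the lowest day 0 value of 8.89.

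Ndc80 and Cenpa belong to the kinetochore, where Cenpa replaces histone H3 at the centromere and Ndc80 grips the microtubule. Ndc80 read 6.74, 7.34, 7.56 and 7.30 at day 0 and 6.69 to 7.36 (median 7.12) at day 1, then 7.35, 6.85, 7.09, 6.78 and 6.79 at day 2, 6.77 to 7.07 (median 6.86) at day 3 and 7.18, 6.25, 6.83 and 6.64 at day 6. Later it read 6.50, 7.62 and 6.93 at day 9, 6.79 at day 16, 6.16 at day 29 and 5.74 to 7.27 (median 6.50) in the late tumours. Its late difference of -0.65 ± 0.22 (SE, limma adjusted p = 0.0148) was called although the ranges overlapped over most of the day 0 span. The call was lost in 5 of 29 alternatives: without day 0 replicate 3 (-0.54, adjusted p = 0.0722), with only the groups compared (adjusted p = 0.0668), within spike-in set 3 (-1.10), with the Gapdh covariate (-0.44) and without tumours of large Gapdh difference (-0.17). Cenpa read 8.81, 9.45, 9.60 and 9.55 at day 0 and 8.88 to 9.43 (median 9.14) at day 1, then 9.96, 9.20, 9.48, 9.24 and 9.48 at day 2, 9.00 to 9.42 (median 9.18) at day 3 and 9.45, 8.39, 9.12 and 8.90 at day 6. It was at 8.20, 9.62 and 8.34 at day 9, 8.63 at day 16, 7.17 at day 29 and 6.30 to 8.97 (median 8.11) in the late group. The late tumours with the highest Cenpa, replicates 1 and 8, exceeded the lowest day 0 tumour and the rest did not. The late difference of Cenpa was -1.26 ± 0.31 (adjusted p = 0.00118). The other kinetochore members Nuf2 (-0.61 ± 0.22), Cenpe (-0.94 ± 0.27) and Cenpf (-0.97 ± 0.35) were called lower, with overlapping ranges.

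Kif11, the motor that pushes spindle poles apart, is 1 of the 3 members not called. Its levels were 6.41, 6.72, 7.36 and 7.08 at day 0 and 6.26 to 7.05 (median 6.82) at day 1, then 7.72, 6.87, 7.05, 6.62 and 7.17 at day 2 and 6.56 to 6.96 (median 6.90) at day 3. Beyond that they were 7.04, 6.11, 6.93 and 6.69 at day 6 and 5.94, 7.27 and 6.46 at day 9, with 6.15 at day 16, 5.54 at day 29 and 5.55 to 7.07 (median 6.39) late. Late and day 0 tumours overlapped, and the late difference was -0.49 ± 0.24 (SE, limma adjusted p = 0.0891). Both other Kif11 probe sets were called lower, at -0.84 ± 0.29 (adjusted p = 0.0179) and -0.42 ± 0.16 (adjusted p = 0.0237). The gene itself was called in 5 of 29 alternatives: the mean of probe sets (-0.58), array weights (-0.53), the spike-in covariate (-1.02), and without day 0 replicate 1 (-0.65) or late replicate 4 (-0.56). The motors Kif20a (-1.46 ± 0.29), Kif2c (-1.26 ± 0.25), Kif4 (-0.89 ± 0.20) and Kif23 (-0.83 ± 0.24) were called lower. Of the spindle proteins, Tpx2, which activates Aurka, was at -1.18 ± 0.24 and called, and Nusap1, which bundles microtubules, was at -0.28 ± 0.33 (adjusted p = 0.497) and late replicates 1 and 5 (8.63 and 8.59) exceeded the highest day 0 tumour (8.46).

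Prc1 bundles the microtubules of the midzone where the cell will divide. It gave 8.46, 8.90, 9.42 and 9.29 at day 0 and 8.42 to 9.04 (median 8.80) at day 1, then 9.11, 8.51, 8.81, 8.29 and 8.31 at day 2 and 8.08 to 8.76 (median 8.48) at day 3. It also gave 8.96, 7.91, 8.39 and 8.25 at day 6 and 7.81, 9.19 and 8.20 at day 9, with 8.38 at day 16, 6.78 at day 29 and 6.33 to 8.70 (median 7.71) in the late tumours. Late replicate 8 alone exceeded the lowest day 0 tumour. The difference was -1.45 ± 0.30 (SE, limma adjusted p = 0.000188). Cytokinesis members fell with it: Racgap1 (-1.15 ± 0.21), Ect2 (-1.06 ± 0.26) and Anln (-1.15 ± 0.29).

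Top2a untangles sister chromatids and Mki67 coats mitotic chromosomes and is the common marker of dividing cells. Top2a stood at 9.56, 9.99, 10.13 and 10.49 at day 0 and 9.25 to 10.08 (median 9.76) at day 1, then 10.58, 9.57, 9.75, 9.00 and 9.86 at day 2, 9.29 to 9.97 (median 9.57) at day 3 and 9.78, 9.68, 9.92 and 9.08 at day 6. It stood at 8.61, 10.30 and 9.39 at day 9, 9.18 at day 16, 7.10 at day 29 and 7.01 to 9.90 (median 8.88) in the late tumours. Of the late tumours 3 reached into the day 0 range, 5 lay between 8.57 and 9.01, and replicates 6 and 9 were at 7.22 and 7.01. Mki67 stood at 9.62, 10.05, 10.48 and 10.60 at day 0 and 9.76 to 10.28 (median 10.12) at day 1, then 10.84, 9.72, 9.98, 9.59 and 10.14 at day 2, 9.85 to 10.16 (median 9.93) at day 3 and 10.25, 9.14, 10.00 and 9.55 at day 6. It stood at 9.37, 10.55 and 9.93 at day 9, 10.12 at day 16, 8.01 at day 29 and 7.63 to 10.28 (median 9.49) late. The late Mki67 tumours included 4 within the day 0 range. The late differences were -1.27 ± 0.37 for Top2a (SE, limma adjusted p = 0.00542) and -0.87 ± 0.33 for Mki67 (adjusted p = 0.0298). Mki67 kept its call in 22 of 29 alternatives, losing it without day 0 replicate 3 (-0.77) or 4 (-0.73) and without late replicate 6 (-0.70). The Mki67 call was also lost with only the groups compared (limma adjusted p = 0.134) and within spike-in set 3 (0.0938). The Gapdh covariate (0.108) and leaving out tumours of large Gapdh difference (0.268) ended it too. Top2a lost its call in 3 of 29 alternatives. These were only the groups compared (0.0511), the Gapdh covariate (0.0948) and no tumours of large Gapdh difference (0.224). The remaining members Cdca3 (-0.69 ± 0.28), Nek2 (-0.89 ± 0.22), Melk (-1.11 ± 0.25) and Hmmr (-0.76 ± 0.28) were called lower. The other Hmmr probe sets that passed the filter gave late differences of -0.15, -0.39 and -0.25, none called.

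The late tumours were not alike. The mean over the members was 6.20 in replicate 9 (day 136) and 6.59 in replicate 6 (day 90), and between 7.08 and 7.96 in the other 8. Replicate 9 was the lowest late tumour for 28 of 37 members, and replicate 6 was among the 2 lowest for 28. Replicates 1, 4 and 8, of days 63, 77 and 121, had the highest value for 13, 10 and 12 members and means of 7.96, 7.89 and 7.94. Those means lie above the lowest day 0 tumour (7.80). The day does not order them, since the 3 tumours of day 63 had means of 7.96, 7.14 and 7.08. The SD among late tumours was 0.12 for Foxm1, 0.36 for Aurka and 0.38 for Plk1, but 1.00 for Top2a and 1.08 for Cdk1.

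**Figure D4:**
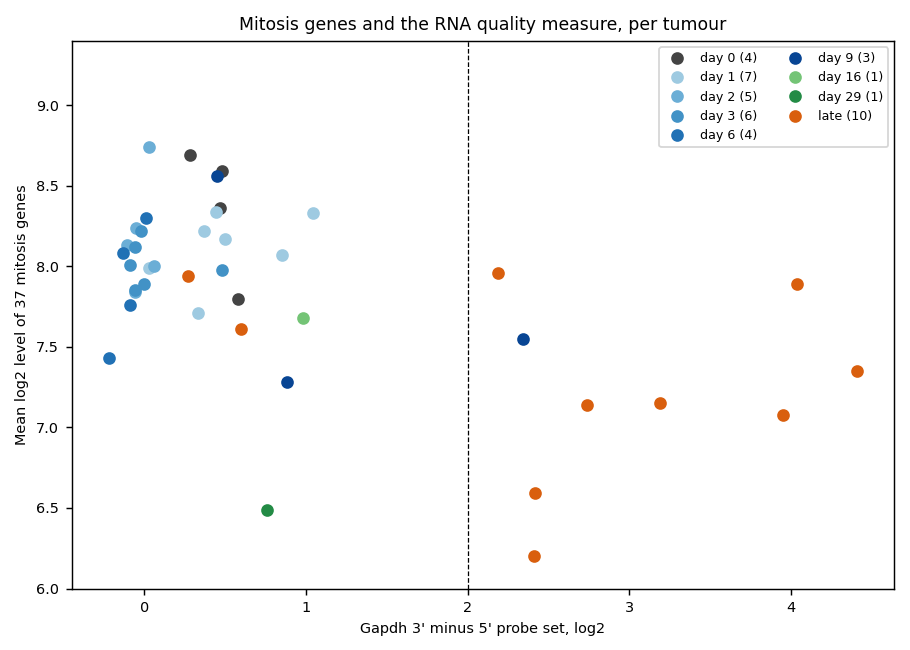
Each point is a tumour, with the Gapdh 3′ minus 5′ difference in log2 on the x axis and the mean log2 level of the 37 mitosis genes on the y axis; the dashed line marks a difference of 2. The 8 late tumours to the right of the line have means from 6.20 to 7.96, the 2 to its left 7.61 and 7.94, and the day 29 tumour lies at 6.49 with a difference of 0.76.

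Some genes listed as markers of other cells were higher in the late group, to be read against the 26.3% of all tested genes called higher there. Which cells expressed them, tumour cells included, cannot be told in these bulk samples. Of 11 peripheral nerve and Schwann cell genes 8 were higher than at day 0, with a summed linear level of 18675 to 33452 against 3360 to 7557. Endothelial genes were higher in 6 of 10 cases (2044 to 3411 against 899 to 2688), skeletal muscle genes in 5 of 10 (240 to 14335 against 299 to 363), keratinocyte genes in 3 of 11 (666 to 53131 against 1167 to 14186) and adipocyte genes in 2 of 4 tested (1642 to 6103 against 248 to 817). Melanocyte genes were higher in 6 of 13 cases and lower in 1 (3004 to 5550 against 2589 to 3576). For fibroblast genes 4 of 10 were higher and 1 lower, for macrophage genes 1 of 12 higher and 2 lower, for B and plasma cell genes 2 of 7 higher, and for T and NK cell genes 0 of 12 either way. At days 1 to 6, by contrast, 7 to 9 of 12 macrophage genes and 3 to 11 of 12 T and NK cell genes were higher than at day 0. Of all tested genes 5.74% to 9.74% were called higher at those days. The part of these cells in the level of the mitosis genes was not tested.

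Other genes of division were listed for comparison, and their counts in the late tumours are to be read against the 20.1% of all tested genes called lower and 26.3% higher. Of 30 other genes of mitotic entry and division 23 were lower and 0 higher (median -0.59), among them the tubulin Tubb5 (-1.28 ± 0.15, SE), Gtse1 (-0.89 ± 0.13), Cdca4 (-0.64 ± 0.10) and Cdca2 (-0.77 ± 0.16). Of 36 other kinetochore and checkpoint genes 15 were lower and 2 higher (median -0.33), with Knl1, the scaffold that Bub1 binds, at -1.13 ± 0.20, Mad1l1 at -0.92 ± 0.11, Cenpt at -0.70 ± 0.12 and Zwint at -0.60 ± 0.14. Of 30 other spindle and centrosome genes 15 were lower and 0 higher (median -0.37), led by the motors Kif22 (-1.20 ± 0.20), Kifc1 (-1.14 ± 0.21) and Kif18b (-0.88 ± 0.18) and by Fam83d (-0.61 ± 0.13). Of 18 other anaphase promoting complex genes 4 were lower (22.2%, near the share of all genes) and 1 higher (median -0.18): Ube2s, the enzyme that extends chains begun by Ube2c, was at -2.32 ± 0.36, the activator Fzr1 at -0.96 ± 0.20, the inhibitor Fbxo5 at -0.84 ± 0.20, and the subunit Anapc13 at 0.95 ± 0.19.

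DNA replication genes and the output genes of the MAPK pathway were listed too. Of 47 replication genes 6 were lower at day 3 (12.8%, near the 11.6% of all tested genes) and 18 in the late tumours (38.3%, against 20.1%), where 1 was higher and the median was -0.23. Ccne1, the cyclin of entry into S phase, was at -0.71 ± 0.16 (SE) at day 3 and -0.83 ± 0.15 late, and the thymidine kinase Tk1 at -1.60 ± 0.28 late. Of 20 MAPK output genes 9 were already lower at day 1 (median -0.61), where 6.25% of all tested genes were. By day 3, 15 were lower (median -1.07, against 11.6%), with Spred3 at -1.92 ± 0.20. Late, 15 were lower and 1 higher (median -1.14), against 20.1% and 26.3% of all tested genes. At day 3, 2 of 37 mitosis genes had been called. At that day Mad1l1 (-0.56 ± 0.12) and Cenpt (-0.58 ± 0.14) of the kinetochore list, Cit (-0.43 ± 0.10) and Cdc25a (-0.54 ± 0.17) of the mitotic entry list and Fbxo5 (-0.66 ± 0.22) were also lower, while Haus4 of the spindle list (0.43 ± 0.11) and Mis18a of the kinetochore list (0.43 ± 0.15) were higher.

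**Figure D5:**
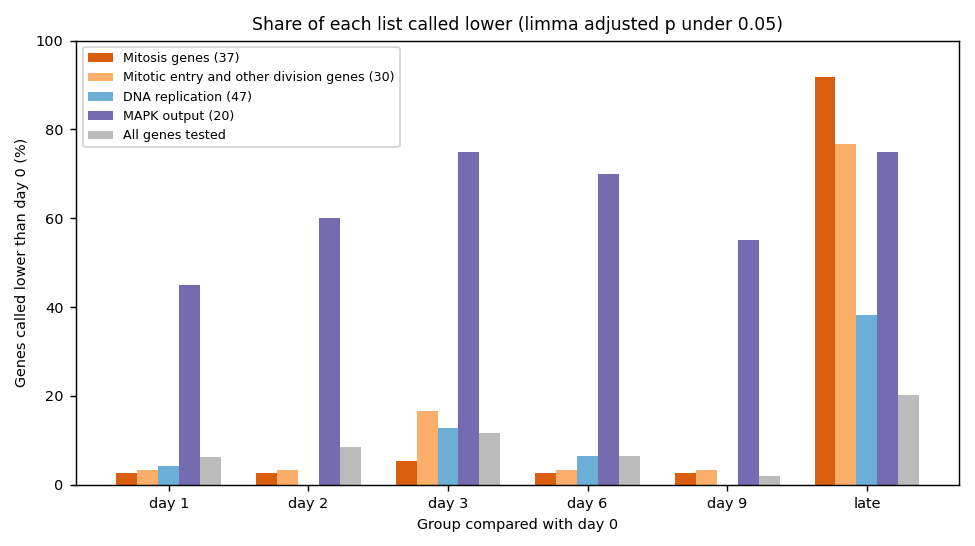
Bars give the percent of each list called lower than day 0 (limma adjusted p under 0.05) at each day, beside all 14319 genes tested. The MAPK output bar is the highest from day 1 to day 9, and the mitosis gene bar, at 34 of 37, is the highest in the late tumours.

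By promoter, the 24 members with TTTGAA had a median late difference of -1.15 with 22 called, the 7 without it -0.94 with 6 called, and the 6 not in the promoter table -1.10 with 6 called. Where several probe sets of a member passed the filter, the 30 beyond the one used, of 19 genes, gave a late difference below 0 in 30 of 30 cases, 23 of them called lower and 0 higher. Those not called were of Hmmr, Tpx2, Top2a and Anln. These probe sets measure the same genes on the same arrays, so they are not independent of the counts above. The share called over all probe sets of that fit was not counted.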

How the data were processed

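RNA from 41 tumours was measured on Affymetrix arrays, 1 tumour per array, and the authors deposited a table of linear intensity values for 45101 probe sets. The submitters' processing notes name RMA and MAS5 without saying which made the table, and the array medians lay between 51.8 and 57.4. With arrays, the number of samples limits the precision. Probe sets naming 1 gene (34958) were kept, those naming several (932) or none (9211) were left out, and the probe set with the highest mean stood for its gene.

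The deposited intensities were turned to log2 after adding 16, quantile normalized, filtered (above the 40th percentile in at least 3 arrays) and tested two-sided with limma 3.58.1 (R 4.3.3), in a model of group means over all 41 tumours with Benjamini-Hochberg adjustment over 14319 genes. Figures used matplotlib 3.10.9. The code was tested on simulated data. Late tumours were pooled. Alternatives changed the scaling, pseudocount, filter, probe set rule, model and samples. Testing every probe set of the members was added after seeing the data.

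The members and lists were chosen with earlier results of these data known. Values per tumour are given for members picked by role. From each other list, up to 4 genes with the lowest p late and up to 2 at day 3 are named; other genes only where a small count is spelled out. Lists covered division, replication, regulators, MAPK output and the markers of other cells.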

Additional observations from a re-analysis of the deposited data

Results flagged for a closer look

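Among 84 groups of 4 to 10 tumours checked for a single tumour far from the rest, 2 held one, where chance gives about 1 in 20. Both were day 2 replicate 1: Plk1 was at 8.19 there and at most 7.32 in the other 4 day 2 tumours, and Bub1b was at 8.62 there and at most 7.74 in the others.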

How the results depend on the processing

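Every count below is of members called lower, and 0 were called higher in each fit that left out 1 tumour. Against day 0, the day 1 count of 1 became 0 with the mean of probe sets, 3 with array weights, and 2 with only the groups compared, without tumours of Gapdh difference over 2, or with spike-in set as a covariate. The day 2 count of 1 became 2 with array weights and 0 with only the groups compared or the spike-in covariate. The day 3 count of 2 became 1 with median centring, without normalization, with a pseudocount of 1 or with no filter, 4 with the mean of probe sets, 9 with array weights, 8 with only the groups compared and 0 with the spike-in covariate. The day 6 count of 1 became 9 with array weights, 2 with the mean of probe sets, only the groups compared or the Gapdh covariate, 3 without tumours of large Gapdh difference and 0 with the spike-in covariate. The day 9 count of 1 became 3 with array weights and 0 with only the groups compared, without tumours of large Gapdh difference or within spike-in set 3. The late count of 34 became 16 with the Gapdh covariate, 9 without tumours of large Gapdh difference and 17 within set 3. Against day 1 the count of 30 became 11 and 9 under the first 2 of these. Against days 6 and 9 the count of 21 became 3 with only the groups compared, 0 with the Gapdh covariate, 1 without tumours of large Gapdh difference, and 11 with the spike-in covariate or with late days 63 to 121 only. The cause of these changes was not tested, except that several fits hold fewer tumours. Leaving out 1 tumour gave 0 to 1 at day 1, 1 to 1 at day 2, 1 to 3 at day 3, 0 to 2 at day 6, 0 to 11 at day 9, 27 to 36 for late against day 0, 25 to 33 against day 1 and 3 to 23 against days 6 and 9. Cdk1 turned to 0.25 against day 1 and 0.54 against days 6 and 9 without tumours of large Gapdh difference.

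Over all genes, the number called against day 0 moved from 1979 to 3739 at day 1 and from 1747 to 3971 at day 6 with array weights, and to 79, 134 and 70 at days 2, 3 and 6 with the spike-in covariate (from 2161, 3057 and 1747). At day 9 it moved from 653 to 0 with only the groups compared, 24 without tumours of large Gapdh difference and 1 within set 3. For late against day 0 it moved from 6648 to 3468 with the Gapdh covariate, 4043 without those tumours, 4306 with the spike-in covariate and 2341 within set 3, and for late against day 1 from 7403 to 3680 and 3733 under the first 2. Against days 6 and 9 it moved from 4529 to 7135 with array weights, 735 with the Gapdh covariate and 1994 both without those tumours and with the spike-in covariate. At day 1 the share of calls that were higher was 54.8%, and 67.6% with median centring. Plk1 and Aurka kept their late call against day 0 in 29 of 29 alternatives and against day 1 in 32 of 32. No paired analysis was possible because replicates were numbered in accession order, which pairs no tumours.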

Other observations

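Among regulators of the mitosis genes, counts are to be read against all tested genes, of which 11.6% were called lower and 9.74% higher at day 3, and 20.1% lower and 26.3% higher late. Of 19 DREAM, MuvB and E2F genes 5 were lower and 2 higher at day 3, and 7 lower and 4 higher in the late tumours (median -0.20). The repressor-type factor E2f8 was at -1.68 ± 0.33 (SE) at day 3 and -2.73 ± 0.30 late, E2f7 at -1.61 ± 0.24 late, and the activator E2f1 at -1.13 ± 0.14 late. Rbl2, which encodes the p130 pocket protein of the DREAM complex, was higher at day 3 (1.00 ± 0.17), and the E2F partner Tfdp2 was higher late (1.14 ± 0.17).

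Of 17 CDK inhibitor and quiescence genes 2 were lower and 2 higher at day 3, and 4 lower and 6 higher late (median -0.14). The shares lower, 11.8% and 23.5%, are near those of all tested genes. The inhibitor Cdkn2b was at -1.30 ± 0.22 (SE) at day 3 and -1.77 ± 0.20 late, and Cdkn1a at -1.49 ± 0.28 late. Gas6 was at 1.98 ± 0.37 and Gas1 at 1.17 ± 0.26 late, and Btg1 at 0.53 ± 0.14 at day 3. Of 20 cohesin, condensin and separase genes 1 was lower and 1 higher at day 3, and 8 lower and 4 higher late (median -0.18). The cohesin subunits Stag2 (0.87 ± 0.10) and Stag1 (0.59 ± 0.12) were higher late, and the condensin subunit Ncaph (-0.96 ± 0.19) and the cohesin protector Cdca5 (-1.17 ± 0.26) lower.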
